A study of Mus musculus with 6 samples.

Results

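The microRNA genes described here sit in or beside imprinted loci and were measured in the embryonic mouse kidney, namely mmu-miR-335, mmu-miR-483, mmu-miR-675, mmu-miR-296 and mmu-miR-298. They were chosen by name for the imprinted loci Mest, Igf2, H19 and Gnas, and every mature strand of their hairpins was taken. This gave 5 hairpins of 436 and 9 mature strands of 535, with both arms of 4 hairpins and only the 5p arm of mmu-miR-298. All 9 strands passed the filter of more than 10 counts summed over the libraries, which left 525 miRNAs to test.

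The series profiled small RNA (sRNA-Seq) from kidneys of wildtype CD1 mice at embryonic day 15.5, with no treatment named, and compared nephron progenitors with whole kidney in 3 libraries each. Nephron progenitors were an enriched fraction, the cells released by limited digestion after magnetic removal of those carrying CD140a, CD105, Epcam or Ter119. Whole kidney was the tissue that remained of the kidneys after that digestion, of the same strain and age, and its RNA was purified with another kit of the same maker (miRNeasy Mini in place of Micro), so cell isolation and kit cannot be told apart from the cell population. Both groups were drawn from 3 litters according to the methods, but which nephron progenitor and whole kidney libraries share a litter was not stated. Of the 3 columns in each group, those numbered 1 and 2 match a labelled replicate and the one numbered 6 matches none, so it is used as a member of its group only.

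Imprinted genes are expressed mainly from the allele inherited from one parent, and many of them act on growth of the fetus and placenta. Mest, expressed from the paternal allele, encodes a protein of the alpha/beta hydrolase fold and is active in embryonic mesoderm. Igf2, a paternally expressed fetal growth factor, and H19, a maternally expressed long noncoding RNA, share one imprinted domain, and the Gnas domain holds transcripts expressed from either or both alleles. A miRNA hairpin is cut into a 5p and a 3p strand, and the allele of origin and the host transcripts were not analysed here.

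The summed counts of the nephron progenitor libraries 1, 2 and 6 were 393951, 436113 and 333850, and those of the whole kidney libraries 1, 2 and 6 were 349241, 360221 and 355848. Values are given as CPM, counts brought to a common library size after TMM scaling, in the order of libraries 1, 2 and 6 of each group, and 1 count was worth 2.18 to 3.15 CPM. Pairs of libraries in a group were compared only to see whether one library was present more than once, and none was, as the chi-square statistic per degree of freedom ran from 2.9 to 55.0. The spread was wider among the nephron progenitor libraries, where libraries 1 and 6 differed most, than among the whole kidney libraries, where the highest value was 8.82. Counting intervals and floors cover counting error only and leave out the spread between libraries. The libraries carried no molecular identifiers, so duplicate reads could not be told apart.

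The nephron progenitor label was compared with marker miRNAs of other cell types. The 5 epithelial markers (miR-200a-3p, miR-200b-3p, miR-200c-3p, miR-429-3p and miR-141-3p) summed to 222 CPM in nephron progenitors against 23200 CPM in whole kidney, with miR-200a-3p the most abundant and miR-141-3p at 0 counts in every nephron progenitor library. Both strands of endothelial miR-126a summed to 530 CPM against 19900 CPM, the 4 erythroid markers (miR-451a the most abundant over both groups, miR-486a-5p in nephron progenitors) to 280 CPM against 1240 CPM, and the tubule markers miR-192-5p and miR-194-5p to 509 CPM against 2160 CPM. Every tested strand of these 4 lists was lower in nephron progenitors at an adjusted p of 0.05 or less, where 17.1% of all tested miRNAs were. This holds for the listed strands only. Off the lists, the other arms miR-200a-5p and miR-200b-5p were lower as well, and miR-194-2-3p and miR-486a-3p did not pass. Their counts were low, 6, 3 and 2 against 3, 0 and 0 for miR-194-2-3p and 4, 1 and 0 against 2, 4 and 0 for miR-486a-3p. A lower level of a marker can reflect fewer cells of a type or less RNA per cell, which cannot be told apart in bulk libraries.

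Of the 9 member strands, 3 were higher in nephron progenitors at an adjusted p of 0.05 or less (edgeR quasi-likelihood test, Benjamini-Hochberg adjustment across 525 miRNAs), both strands of mmu-miR-335 and the 3p strand of mmu-miR-483. The other 6 strands, from mmu-miR-483, mmu-miR-675, mmu-miR-296 and mmu-miR-298, did not pass, and of these only miR-296-3p kept the sign of its log2 fold change in all 18 alternative analyses. The share of 33.3% is close to the 36.6% of all tested miRNAs that passed in either direction, and 19.4% of all passed as higher in nephron progenitors. The same 3 strands had groups that did not overlap, where 46.7% of all tested miRNAs did not overlap and 23.4% lay wholly higher in nephron progenitors. The median log2 fold change of the 9 strands was 0.08, beside -0.01 for all tested miRNAs. Summed over the 9 strands, the level was 11200 ± 578 CPM in nephron progenitors, against 6840 ± 841 CPM for whole kidney (SD over 3 libraries each).

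**Figure D1:**
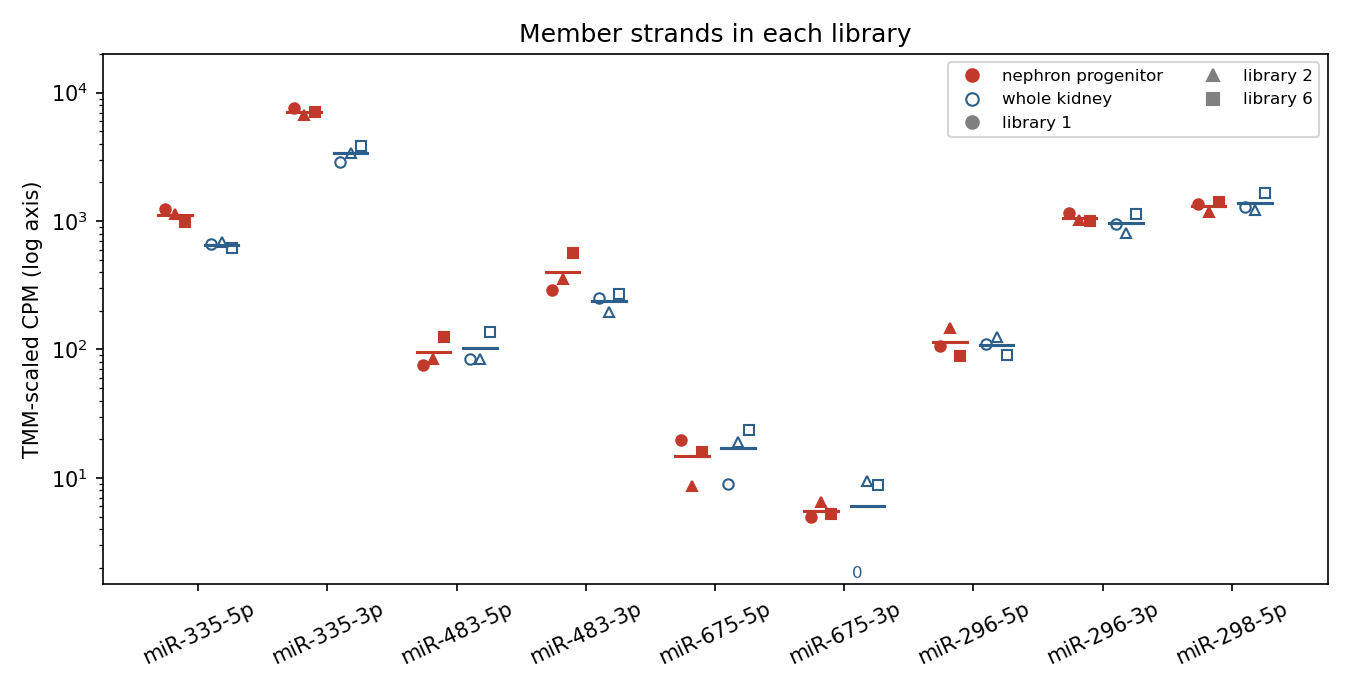
TMM-scaled CPM of the 9 member strands on a log axis, with nephron progenitor libraries as filled red and whole kidney libraries as open blue symbols, 1 symbol shape for each library number, and bars for the group means. The 2 strands of miR-335 lie apart between the groups (6690 to 7550 against 2860 to 3860 CPM for the 3p strand), miR-483-3p does so narrowly, and the other 6 strands overlap; the value of 0 marks whole kidney library 1 for miR-675-3p.

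The hairpin of mmu-miR-335 lies at chr6:30741299-30741396 on the plus strand (mm10), inside Mest, which spans chr6:30723547-30748465 on the same strand in GENCODE M21. All 7 of the 11 annotated Mest transcripts that span the hairpin hold it in an intron, which is intron 1, 2 or 3 depending on the transcript. Its 3p strand was by far the most abundant member strand, at rank 28 of 525 in nephron progenitors and rank 43 in whole kidney.

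The miR-335-3p level was 7550, 6690 and 7030 CPM in the nephron progenitor libraries and 2860, 3370 and 3860 CPM in the whole kidney libraries, from 3068, 3071 and 2674 counts against 952, 1070 and 1321 counts. Every nephron progenitor library was above every whole kidney library, and the gap between the groups was wider than the range within either. The means of 7090 ± 435 and 3360 ± 499 CPM (SD) gave a log2 fold change of 1.08 (SE 0.16, 95% interval 0.73 to 1.42), or 2.11-fold higher in nephron progenitors, with an adjusted p of 0.000156 (edgeR quasi-likelihood test, Benjamini-Hochberg). A 2-sided exact permutation test of the 3 against 3 libraries gave p = 0.1, the smallest it can give.

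The miR-335-5p level was 1240, 1140 and 985 CPM in nephron progenitors against 664, 683 and 617 CPM in whole kidney. The groups again did not overlap, and the whole kidney libraries were close to each other, with an SD of 34.3 CPM beside 129 CPM in nephron progenitors. The log2 fold change was 0.78 (SE 0.18, 95% interval 0.39 to 1.17), with an adjusted p of 0.00402 (edgeR quasi-likelihood test, Benjamini-Hochberg). Summed over both strands, mmu-miR-335 reached 8210 ± 511 CPM in nephron progenitors against 4020 ± 476 CPM (SD over 3 libraries each). It made up 74.6, 73.6 and 71.4% of the summed member CPM in nephron progenitors and 56.8, 62.1 and 57.4% in whole kidney.

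A ratio to another member of the same library needs no scaling between libraries, and miR-298-5p was taken as the partner after the values were seen. There were 5.6, 5.67 and 5.02 counts of miR-335-3p per count of miR-298-5p in nephron progenitors and 2.23, 2.76 and 2.33 in whole kidney. The ratio was higher in every nephron progenitor library, with a ratio of means of 2.22, given as a description with no test because the values of both strands were already known.

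Both arms of mmu-miR-335 were compared within each library. The 3p strand had 6.09, 5.85 and 7.13 counts per 5p count in nephron progenitors and 4.31, 4.93 and 6.26 in whole kidney. The 3p strand was the larger arm in all 6 libraries, and the groups overlapped, since whole kidney library 6 lay between the nephron progenitor libraries. The log2 ratio of 5p to 3p differed by -0.31 between the groups (exact permutation p = 0.3), so a difference between the fold changes of the 2 arms was not shown.

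The sequences of mmu-miR-335 are shown because both of its strands passed the test in all 18 alternative analyses. They are taken from RefSeq on build GRCm38.p6, which has the same coordinates as mm10, and are written 5′ to 3′. The hairpin is at chr6:30741299-30741396, plus strand, with the mature strands in capitals.
mmu-mir-335: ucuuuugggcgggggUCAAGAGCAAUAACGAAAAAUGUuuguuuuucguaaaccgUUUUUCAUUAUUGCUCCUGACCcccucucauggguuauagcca

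Markers of smooth muscle, stroma and skeletal muscle, cells that a sample depleted in this way could hold, were read beside mmu-miR-335. By qPCR, the paper found Six2 and Cited1 enriched in its isolate and reported minor stromal contamination (Pdgfrβ). The 5 markers of smooth muscle and stroma, most of them counts of miR-143-3p, summed to 33800, 45300 and 46000 CPM in nephron progenitors against 73700, 85300 and 71000 CPM in whole kidney. Among them, miR-143-3p and miR-145a-5p were lower at an adjusted p of 0.05 or less, and miR-199a-3p, miR-199a-5p and miR-214-3p did not pass. Off the list, the other arms miR-143-5p, miR-145a-3p and miR-214-5p did not pass either (log2 fold changes -0.12, -0.30 and 0.28). The 3 skeletal muscle markers, with miR-206-3p the most abundant over both groups and miR-1a-3p in whole kidney, summed to 300, 438 and 131 CPM in nephron progenitors against 66.1, 113 and 61.4 CPM in whole kidney. Of these, miR-206-3p was higher in nephron progenitors (76, 129 and 25 counts against 0, 5 and 1), and miR-1a-3p and miR-133a-3p did not pass. The nephron progenitor library 6 had the lowest skeletal muscle sum of its group and also the lowest miR-335-5p level (1240, 1140 and 985 CPM). Its miR-335-3p level lay between those of libraries 1 and 2. The part of these cells in the miR-335 difference was not tested.

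The 4 leukocyte markers summed to 126, 135 and 52.5 CPM in nephron progenitors against 87.2, 101 and 61.4 CPM in whole kidney, with miR-142a-3p the most abundant over both groups and miR-142a-5p in whole kidney. Their adjusted p ran from 0.257 to 0.89 and their groups overlapped in summed level. The list holds only the 3p arm of miR-223. Off the list, miR-223-5p was higher in nephron progenitors at low counts (4, 8 and 7 against 0, 0 and 0, edgeR adjusted p 0.00501).

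The hairpin of mmu-miR-483 lies at chr7:142654924-142654996 on the minus strand, in an intron of Igf2 (chr7:142650766-142666816, same strand), intron 1 or 2 in the 7 of 9 annotated transcripts that span it. It also falls in intron 3 of Gm49394, an annotated gene that overlaps Igf2 on the same strand. The hairpin of mmu-miR-675 lies 77.8 kb away at chr7:142577064-142577147, minus strand, within H19 (chr7:142575529-142578143). Of the 4 of 7 annotated H19 transcripts that span it, 3 hold it in an exon and 1 in an intron.

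The miR-483-3p level was 290, 353 and 562 CPM in nephron progenitors against 250, 195 and 269 CPM in whole kidney, from 118, 162 and 214 counts against 83, 62 and 92 counts. The groups did not overlap, but nephron progenitor library 1 was close to the highest whole kidney library and library 6 stood well above the other 2 of its group. The means were 402 ± 142 and 238 ± 38.2 CPM (SD), and the log2 fold change was 0.75 (SE 0.27, 95% interval 0.18 to 1.33), with an adjusted p of 0.0409 (edgeR quasi-likelihood test, Benjamini-Hochberg). It passed in 7 of 18 alternative analyses, with adjusted p from 0.00364 to 0.207. Leaving out 1 library kept the call only without nephron progenitor library 1 (0.94), and the log2 fold change was 0.83 without library 2 and 0.40 without library 6 of that group, and 0.79, 0.62 and 0.86 without whole kidney libraries 1, 2 and 6.

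The miR-483-5p level was 76.3, 84.9 and 126 CPM against 84.2, 85.0 and 137 CPM. The groups overlapped almost fully, with library 6 the highest of each group. The log2 fold change was -0.10 with a 95% interval from -0.74 to 0.53, and the sum of both mmu-miR-483 strands (498 ± 169 against 340 ± 63.3 CPM, SD) overlapped between the groups.

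The strands of mmu-miR-483 were also compared within each library. There were 3.81, 4.15 and 4.46 counts of the 3p strand per 5p count in nephron progenitors and 2.96, 2.30 and 1.96 in whole kidney. The 5p strand took 20.8, 19.4 and 18.3% of the counts of both arms in nephron progenitors and 25.2, 30.3 and 33.8% in whole kidney. The groups did not overlap in this share, but the exact binomial 95% interval of whole kidney library 1, from 17.5 to 34.4%, covered all 3 nephron progenitor shares. The difference in the log2 ratio of 5p to 3p was -0.80 (exact permutation p = 0.1, the smallest possible).

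For reference, 26 of 67 pairs of arms with a mean of at least 10 counts in each strand (38.8%) had groups that did not overlap, with a median absolute log2 difference of 0.37. Among these 67 pairs, chosen as a comparison after the values were seen, mmu-miR-483 ranked 13, mmu-miR-335 ranked 39 and mmu-miR-296 ranked 55 by the size of the difference.

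**Figure D2:**
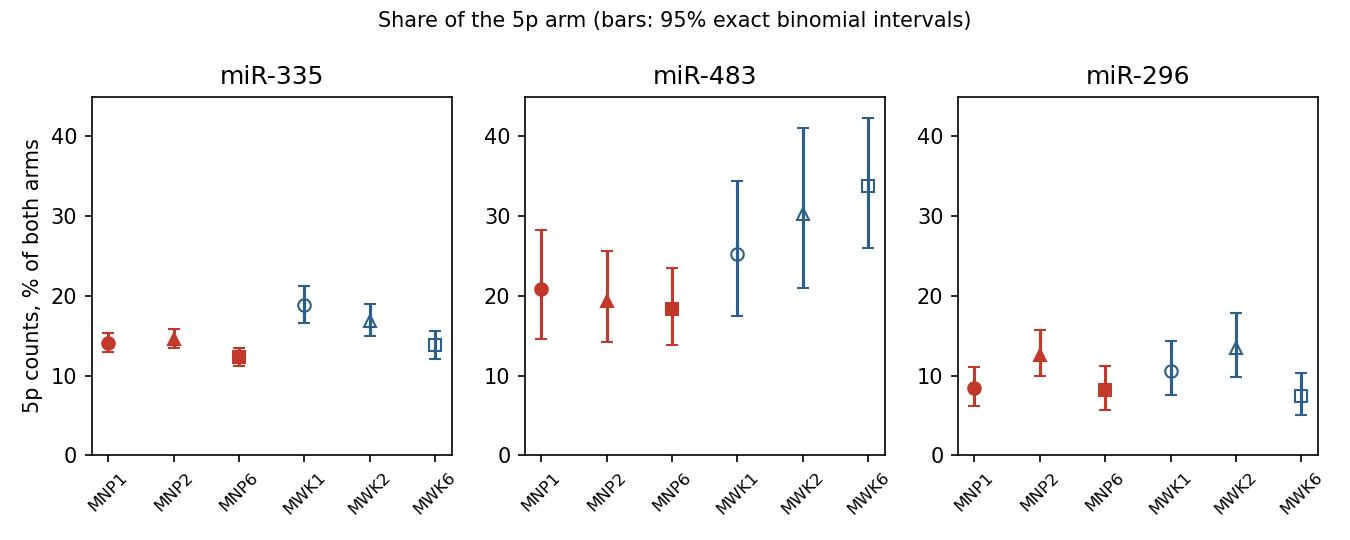
Share of the 5p strand in the counts of both arms, in percent, for miR-335, miR-483 and miR-296 in each library (filled red, nephron progenitor; open blue, whole kidney), with bars for exact binomial 95% intervals. The miR-483 shares of 18.3 to 20.8% in nephron progenitors lie under those of 25.2 to 33.8% in whole kidney, with wide intervals, and the shares of miR-335 and miR-296 overlap between the groups.

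Among the nephron progenitor libraries, miR-483-3p was lowest in library 1 and highest in library 6. Of the 5 smooth muscle and stroma markers, miR-199a-5p had the same order at 5390, 7930 and 10500 CPM (5910, 5880 and 6310 CPM in whole kidney), as did miR-199a-3p and miR-214-3p. The other markers of that list were highest in library 2, miR-143-3p at 21300, 28100 and 25600 CPM and miR-145a-5p at 98.5, 135 and 99.8 CPM. The miRNAs from Dlk1 to Dio3, another imprinted region, summed to 28300, 51900 and 61600 CPM, and the erythroid markers ran the other way at 382, 281 and 176 CPM. Whether any of these had a part in the miR-483-3p difference was not tested.

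Counts of mmu-miR-675 were close to the floor. The miR-675-5p strand had 8, 4 and 6 counts in nephron progenitors and 3, 6 and 8 in whole kidney, and the miR-675-3p strand had 2, 3 and 2 against 0, 3 and 3, at or under the floor of 3 counts in every library. The groups overlapped in both strands. Summed over the libraries, miR-675-5p had 18 counts against 17, a rate ratio of 0.843 with an exact 95% counting interval from 0.41 to 1.74. The log2 fold change of miR-675-5p was -0.23 with a 95% interval from -1.39 to 0.92, so no difference was detectable at this depth, and no fold is given for miR-675-3p.

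The mmu-miR-296 hairpin is at chr2:174267047-174267125 and the mmu-miR-298 hairpin at chr2:174267504-174267585, both on the minus strand and 379 bp apart. They were the only pair of member hairpins within 50 kb of each other or of any other miRNA in the table. Neither lies inside an annotated gene of GENCODE M21, so the name of a host does not hold for them in that annotation. The nearest imprinted transcripts are Nespas, an antisense RNA on the same strand that ends 14112 bp from mir-296 and 13652 bp from mir-298, and Gnas on the plus strand, which starts 17195 and 16735 bp away.

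**Figure D3:**
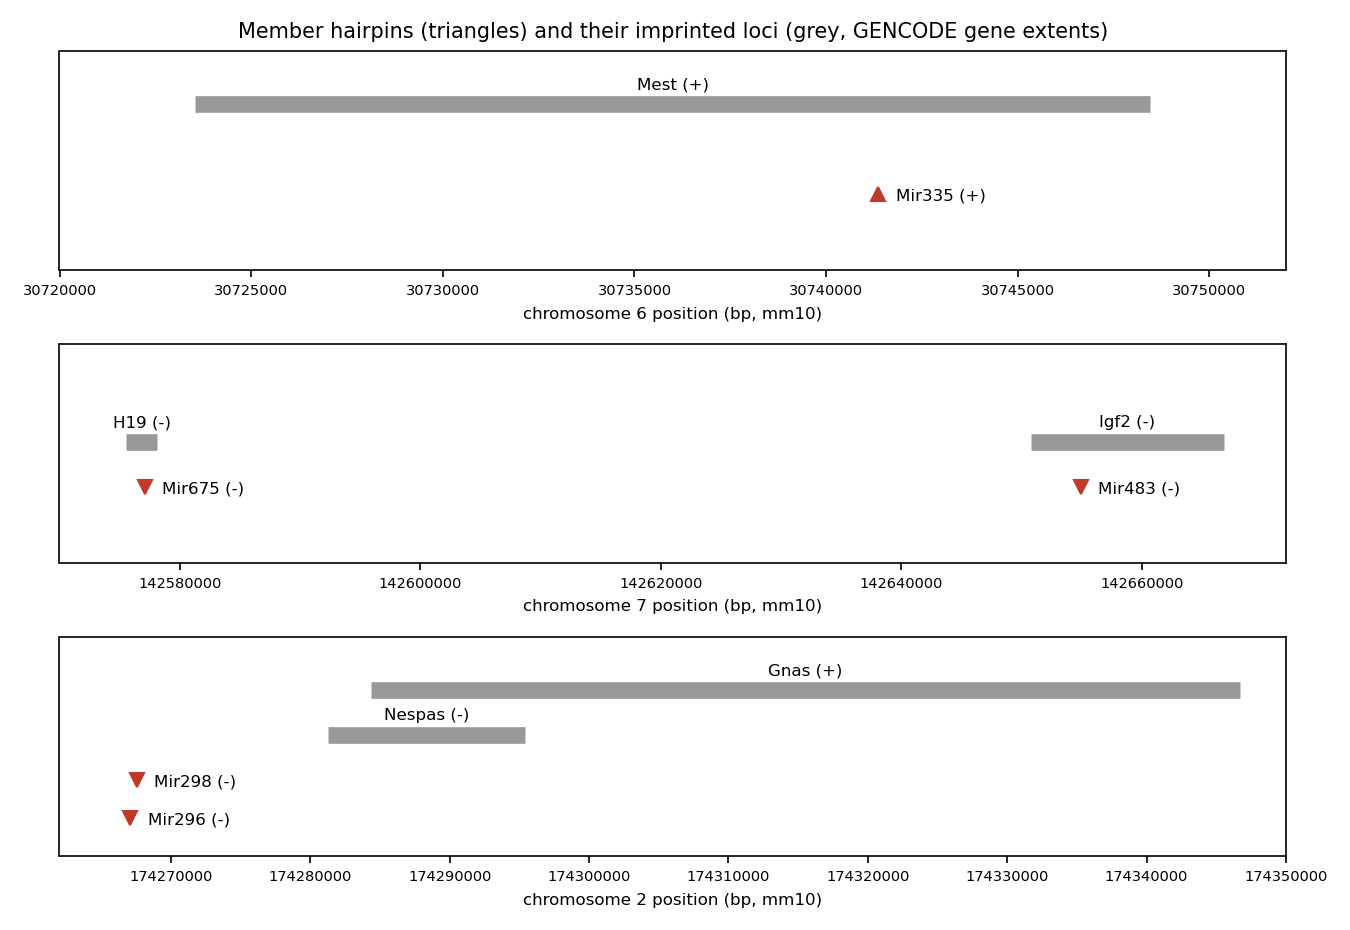
Positions of the 5 member hairpins (triangles, pointing up for the plus and down for the minus strand) and of the annotated imprinted genes (grey bars, full gene extents) on chromosomes 6, 7 and 2, in bp of mm10. The hairpins of miR-335, miR-675 and miR-483 fall inside Mest, H19 and Igf2, and those of miR-296 and miR-298 lie 14112 and 13652 bp outside the extent of Nespas.

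The miR-298-5p level was 1350, 1180 and 1400 CPM in nephron progenitors against 1280, 1220 and 1650 CPM in whole kidney. The groups overlapped, with whole kidney library 6 the highest of all. The log2 fold change was -0.08 (95% interval -0.48 to 0.31), so the log2 fold changes measured for both miR-335 strands lay above the interval.

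The miR-296-3p level was 1150, 1020 and 1010 CPM in nephron progenitors against 941, 812 and 1130 CPM in whole kidney. Whole kidney library 6 was again the highest of its group and within the nephron progenitor range. The log2 fold change was 0.14 (95% interval -0.26 to 0.55). For miR-296-5p, at 106, 148 and 89.3 CPM against 111, 126 and 90.6 CPM, it was 0.08 (95% interval -0.51 to 0.66), and library 6 had the lowest level of each group.

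These neighbours ranked alike in abundance, miR-298-5p at 80 in nephron progenitors and 76 in whole kidney and miR-296-3p at 89 in both. Per count of miR-298-5p there were 0.856, 0.867 and 0.72 counts of miR-296-3p in nephron progenitors and 0.733, 0.665 and 0.686 in whole kidney. The groups overlapped, since nephron progenitor library 6 was lower than whole kidney library 1, and an exact permutation test gave p = 0.2. The 3p strand of mmu-miR-296 was the larger arm in all 6 libraries, with 10.9, 6.91 and 11.3 counts per 5p count in nephron progenitors and 8.46, 6.45 and 12.5 in whole kidney, which overlapped (exact permutation p = 0.9).

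The mature strands were compared in sequence with 1679 mature mouse miRNAs in RefSeq (build GRCm38.p6), which held all 9 member strands and 440 of the 535 miRNAs in the table. No other mature miRNA shared bases 2 to 8, the seed, with a member strand, and the members shared no seed with each other. The closest other mature sequence differed by at least 6 edits for every member strand. Strands of mmu-miR-335 held 36.4% (3p) and 30.4% (5p) G and C, and the other 7 strands 54.5 to 68.2%. The 3 strands that passed the test and the most abundant strand of mmu-miR-296 and mmu-miR-298 are shown 5′ to 3′ with the seed in capitals, to show that their seeds differ. Their positions are chr6:30741354-30741375 and chr6:30741314-30741336 on the plus strand, and chr7:142654932-142654952, chr2:174267058-174267079 and chr2:174267553-174267575 on the minus strand.
mmu-miR-335-3p: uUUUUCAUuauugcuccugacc
mmu-miR-335-5p: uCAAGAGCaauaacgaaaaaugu
mmu-miR-483-3p: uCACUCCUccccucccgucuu
mmu-miR-296-3p: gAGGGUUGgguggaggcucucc
mmu-miR-298-5p: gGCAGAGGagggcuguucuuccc

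Likeness between profiles was measured as the root mean square difference of log2 CPM, centred on each miRNA's mean, over the 6 libraries and among 334 miRNAs with a mean of at least 10 counts. For miR-335-3p the closest were miR-196a-5p (0.126), miR-181a-2-3p (0.155) and miR-676-3p (0.157), all from other chromosomes, and its own 5p strand was at 0.239. The closest to miR-335-5p were let-7c-5p (0.0986), miR-210-3p (0.132) and miR-26a-2-3p (0.133), and counts of let-7c-5p are uncertain as far as near-identical let-7 strands share its reads.

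For miR-483-3p the closest were miR-125b-2-3p (0.212), miR-99a-5p (0.222) and miR-199a-5p (0.23), while its own 5p strand was farther, at 0.432. The miR-296-3p strand was closest to miR-362-5p (0.0605), miR-423-3p (0.0879) and miR-671-3p (0.0963). For miR-298-5p they were miR-151-3p (0.097), miR-328-3p (0.0987) and miR-106b-3p (0.102). The closest to miR-483-5p was miR-669l-5p (0.18) and to miR-296-5p miR-455-3p (0.106).

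Other imprinted miRNAs were counted by position. Of 70 tested miRNAs from Dlk1 to Dio3 on chromosome 12, 55 were higher in nephron progenitors at an adjusted p of 0.05 or less, beside 19.4% of all tested miRNAs, with a median log2 fold change of 1.73. Of 40 tested miRNAs inside the imprinted gene Sfmbt2 on chromosome 2, 1 was higher and the median was 0.03. Some of the counted strands have identical counts in every library and are not separate measurements.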

How the data were processed

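Small RNA from 6 libraries was measured, 3 of nephron progenitors and 3 of whole kidney. The authors trimmed the reads, aligned them to mm10 (Bowtie2 2.2.3 in the submitters' processing notes) and counted known miRNAs with miRDeep2, and the deposited table holds expected counts for 792 pairs of a mature miRNA and a precursor, 3 of them with fractions. A mature miRNA made by several precursors can be counted at each, so the highest value per library was kept, which gave 535 miRNAs, and fractions were rounded. Each member strand had 1 precursor.

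Nephron progenitors were compared with whole kidney using edgeR 4.0.16 (R 4.3.3), with TMM scaling, the quasi-likelihood test and p-values adjusted by Benjamini-Hochberg across the 525 miRNAs with more than 10 counts in sum, of which 192 passed at 0.05, 102 higher and 90 lower. Intervals of 95% come from the same fit. Arm ratios used log2 after adding 0.5 counts to each strand, with 2-sided exact permutation tests (scipy 1.17.1). Alternatives were DESeq2 1.42.0, limma-voom (limma 3.58.1), other scalings, filters and ways of joining precursors, a replicate block, and omission of single libraries. The named miRNAs are all member strands, any that share a seed with one or lie within 50 kb, the 3 closest in profile to each member strand with a mean of at least 10 counts, and marker strands of 7 cell type lists. Strands named as off those lists were added after the values were seen. Other imprinted regions are given as counts. For miR-483-5p and miR-296-5p only the closest is printed. Members and lists were chosen with earlier results of these data known.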

Additional observations from a re-analysis of the deposited data

How the results depend on the processing

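Both miR-335 strands stayed higher in nephron progenitors and past the threshold in 18 of 18 alternatives, with log2 fold changes of 0.97 to 1.28 (3p) and 0.71 to 0.98 (5p). For miR-483-3p the value no longer passed with limma-voom (0.70), the filter that asks over 10 counts of each library (0.82), no filter (0.77) or the sum over precursors (0.80), and leaving out 1 library moved it from 0.40 (0.395) to 0.94; the cause was not tested. Values that did not pass changed sign for miR-675-3p with limma-voom (0.30), and with library totals in place of TMM for miR-483-5p (0.11), miR-675-3p (0.090) and miR-298-5p (0.12). Library totals moved the median of all miRNAs by 0.20. A change of scaling moves all miRNAs nearly alike, so taking off that shift brings the values back near those with TMM. The signs it restores are therefore no separate check. The values were then 1.08 for miR-335-3p, 0.78 for miR-335-5p, -0.09 for miR-483-5p and -0.08 for miR-298-5p. Leaving out 1 library gave -0.38 to 0.18 for miR-483-5p, -0.53 to 0.072 for miR-675-5p, -0.17 to 0.19 for miR-296-5p and -0.17 to 0.071 for miR-298-5p. For miR-296-3p it gave 0.028 to 0.28, of 1 sign but of unsteady size. That stricter filter tested 260 miRNAs, called 120 in place of 192 and 41 in place of 72 on the marker and imprinted lists, and gave no value for miR-675.

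The replicate block could use only the labelled numbers 1 and 2, and nothing stated that a number marks a shared litter. Deviations of same-numbered libraries correlated over miRNAs at 0.142 (number 1), 0.0409 (number 2) and 0.223 (column number 6), and whole kidney library 2 correlated more with nephron progenitor library 1 (0.104) than with its own number. In these 4 libraries 158 miRNAs passed with the block and 134 without it. Of the miRNAs on the marker and imprinted lists, 57 passed with the block and 41 without it. The miR-483-3p value was 0.50 with the block (0.5018) and without it (0.5006), not passing in either. A block by the column numbers 1, 2 and 6, added after the data were seen, called 210 and left miR-483-3p past the threshold at 0.72 (edgeR adjusted p 0.00946, with 0.00364 to 0.207 over its alternatives). Depth limits mainly miR-675, where 3 counts are worth 6.53 to 9.44 CPM.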
